A study of Mus musculus with 22 samples.

Results

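TGF-beta and BMP signalling was followed as a list of 47 genes in sort-purified lung epithelial cells (ECs). The list holds 19 genes of the TGF-beta and activin branch, 20 of the BMP branch and 8 that serve both branches. All 47 were found by symbol among the 54373 genes of both count tables, and all are protein-coding. Of the 47, 41 passed the filter on low counts in the 12 libraries taken after house dust mite (HDM) exposure, 45 in the 10 libraries of steady state and 46 in the 22 libraries together. Nog, an extracellular BMP antagonist, did not pass in the 22 libraries. After HDM, Fst, Bmp6, Bmp7, Nog, Grem1 and Chrd did not pass. Genes entered the list by their function in the pathway, though earlier results of these data were known.

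Ligands of this family are secreted as dimers, those of the TGF-beta branch in a latent complex held by latent TGF-beta binding proteins (Ltbp genes). A dimer brings together type II and type I receptor kinases, which phosphorylate the receptor SMADs. Smad2 and Smad3 carry the TGF-beta and activin signal, and Smad1, Smad5 and Smad9 carry the BMP signal. Both groups bind the common partner Smad4 and act in the nucleus, where the Id genes are the best known BMP targets. Smad6, Smad7, the pseudoreceptor Bambi and the Smurf ubiquitin ligases limit the signal. In the lung the family is known for its part in epithelial differentiation, repair and fibrosis.

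The ECs came from wildtype (WT), AhR-/- and CYP1B1-/- mice, all on a C57BL/6 background and older than 7 weeks. The AhR (aryl hydrocarbon receptor) is a ligand-activated transcription factor, and CYP1B1 is an enzyme that breaks down AhR ligands. Cells were sorted as live CD45- EpCAM+ singlets, with CD31- also named in part of the study's text, a gate meant to leave out leukocytes and CD31+ endothelium, from naive lungs (steady state) or 72 h after the last intranasal instillation of HDM extract, which causes allergic airway inflammation. There were 4 WT, 3 AhR-/- and 3 CYP1B1-/- libraries at steady state, and 4 of each genotype after HDM. The sources used here name no tissue-specific Cre. They do not say whether each library came from 1 mouse, so p-values measure the spread between these libraries, which may be technical in part.

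Total counts ranged from 9654825 to 17878442 per library. After HDM, the predicted gene Gm10800 took 0.00819% to 71.9% of the counts, and 2742 to 49878 counts per library fell on the 47 members, fewest in AhR-/- replicate 3. Gene-level counts of the deleted genes did not check the labels, since Ahr was at 12.8 to 25.5 CPM (counts scaled to the effective library size) in the libraries labelled AhR-/- after HDM against 9.62 to 20.0 in WT, and Cyp1b1 at 4.98 to 13.5 in those labelled CYP1B1-/- against 0.897 to 2.31 in WT. AhR-/- and CYP1B1-/- therefore mean libraries labelled so throughout. All 5 epithelial markers were counted in every library, with sums of 489 to 798 CPM in WT after HDM, 758 to 957 in AhR-/-, 548 to 770 in CYP1B1-/- and 1176 to 2263 at steady state, on the scale of all 22 libraries. The summed level of 27 hematopoietic markers, on the scale of all 22 libraries, was 1514 to 4729 CPM in WT after HDM, 255 to 1174 in AhR-/-, 288 to 4570 in CYP1B1-/- and 245 to 537 at steady state. The sum of 8 markers of type 1 alveolar cells (AT1) was 739 to 5240 CPM in WT after HDM, 3669 to 22363 in AhR-/-, 518 to 4678 in CYP1B1-/- and 16728 to 33384 at steady state. Reads of 4 Y-linked genes were present in every steady-state library, and after HDM in AhR-/- replicates 3 and 4 (172 and 191 CPM), while the sum was at most 0.258 CPM in the other 10. Those 2 libraries also had the highest AT1 sums among the 12 (17744 and 22363 CPM) and hematopoietic sums of 317 and 255 CPM, within the range of steady state. A sum is carried by its highest markers. By the mean log2 CPM of the 27 markers the 2 libraries were at 2.07 and 1.73. The steady-state libraries were then at -0.837 to 0.660 in AhR-/- and at -1.08 to 2.88 in WT. Fewer cells of a type and less RNA per cell cannot be told apart in bulk counts.

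**Figure D1:**
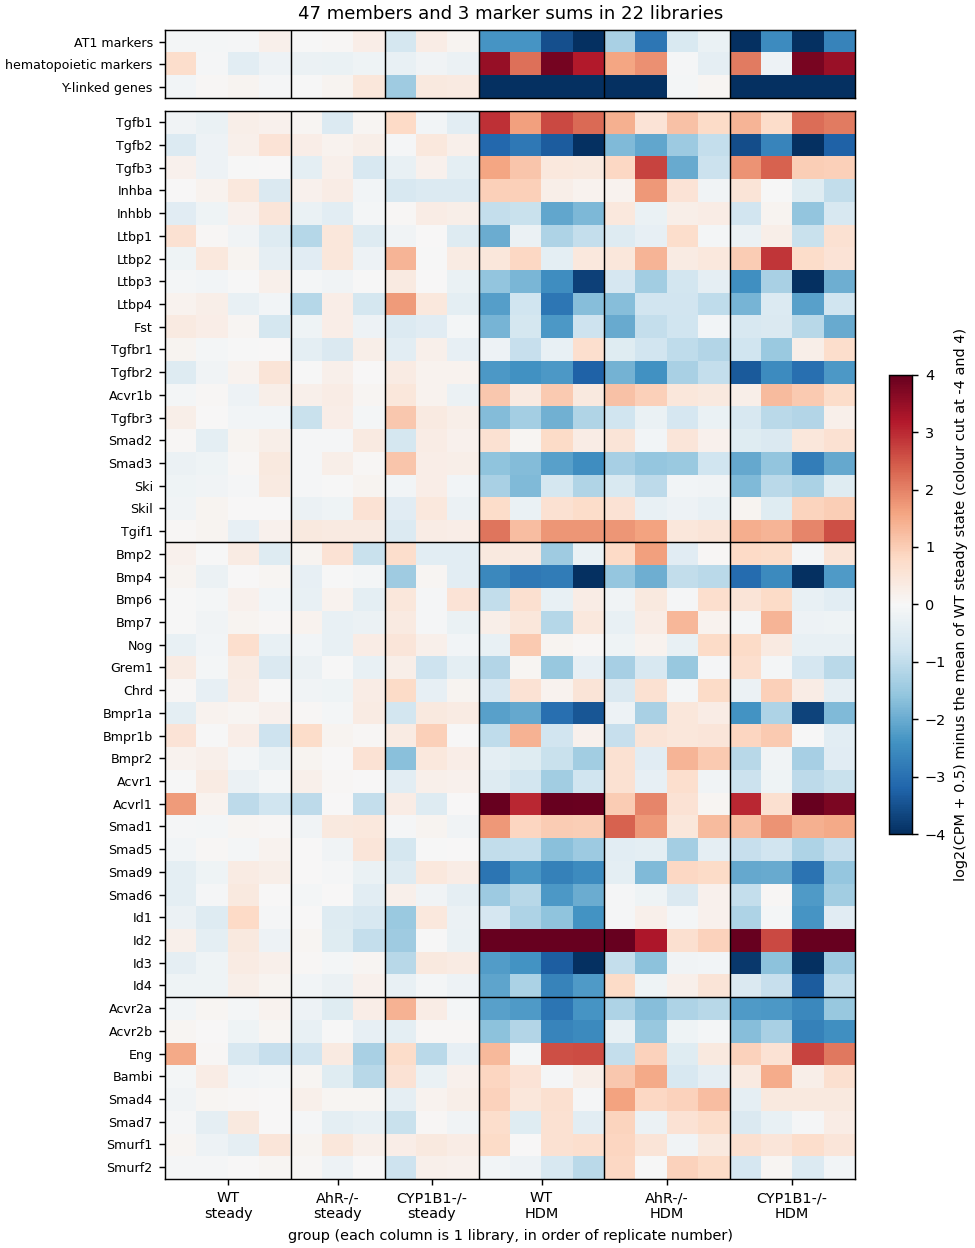
Each row is 1 of the 47 members and each column 1 of the 22 libraries. Colour gives log2(CPM + 0.5) minus the mean of the 4 WT steady-state libraries, cut at -4 and 4, and the strip on top gives the same for the sums of AT1 markers, hematopoietic markers and Y-linked genes. Horizontal lines part the TGF-beta/activin, BMP and shared genes. After HDM, the WT and CYP1B1-/- columns are blue for Tgfb2, Tgfbr2, Bmp4, Bmpr1a, Smad9 and Id3 and red for Tgfb1, Acvrl1 and Id2, and AhR-/- replicates 3 and 4 stand out in the strip by their AT1 and Y-linked sums.

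Levels were compared between members per length, as CPM divided by the exon length in kilobases (RPKM) on the scale of all 22 libraries. The highest median over the 22 libraries was that of Id3, an inhibitor of basic helix-loop-helix factors, at 45.3 RPKM (2.73 to 92.3). The type II receptor Tgfbr2 followed with 24.4 (5.15 to 76.1), Id2 with 23.2 (4.83 to 623) and the ligand Bmp4 with 16.8 (2.08 to 43.4). The ranges of these 4 genes overlapped, and the order changed with state. At steady state in WT the median of Id3 was 71.8 RPKM and that of Id2 13.4, whereas after HDM they were 10.1 and 277. The lowest were the BMP antagonists Nog (0.0560 RPKM) and Chrd (0.0900) and the ligands Bmp6 (0.120) and Bmp7 (0.154). Tgfb1, the ligand most often studied in fibrosis, was also low in these cells, with a median of 0.173 RPKM (0.0114 to 1.13).

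The promoters of 6 members whose level differed after HDM are shown because AhR, paired with ARNT, binds DNA at sites with the core letters GCGTG. Each run is the 250 bases before the RefSeq transcript start (GRCm38.p6), 5′ to 3′ on the strand of the gene, and capitals mark GCGTG or its reverse complement CACGC. They lie at chr3:54755332-54755581 (+ strand, Smad9), chr14:46390670-46390919 (- strand, Bmp4), chr7:25686752-25687001 (+ strand, Tgfb1), chr2:48813859-48814108 (+ strand, Acvr2a), chr13:48260866-48261115 (+ strand, Id4) and chr1:119422249-119422498 (- strand, Inhbb), where no annotated exon overlaps them.
Smad9: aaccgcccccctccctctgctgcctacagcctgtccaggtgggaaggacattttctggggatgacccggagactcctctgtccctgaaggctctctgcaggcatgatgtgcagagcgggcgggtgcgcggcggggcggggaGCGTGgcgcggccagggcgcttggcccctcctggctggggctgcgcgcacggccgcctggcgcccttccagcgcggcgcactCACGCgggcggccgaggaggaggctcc
Bmp4: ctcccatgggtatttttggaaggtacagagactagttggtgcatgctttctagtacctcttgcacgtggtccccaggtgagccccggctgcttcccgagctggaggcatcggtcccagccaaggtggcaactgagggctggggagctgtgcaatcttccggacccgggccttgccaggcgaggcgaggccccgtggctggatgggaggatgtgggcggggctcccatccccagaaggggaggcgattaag
Tgfb1: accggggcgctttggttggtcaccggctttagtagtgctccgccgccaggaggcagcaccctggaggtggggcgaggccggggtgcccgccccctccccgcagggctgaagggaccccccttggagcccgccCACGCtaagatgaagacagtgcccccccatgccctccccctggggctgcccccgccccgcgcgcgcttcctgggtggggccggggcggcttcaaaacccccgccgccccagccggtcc
Acvr2a: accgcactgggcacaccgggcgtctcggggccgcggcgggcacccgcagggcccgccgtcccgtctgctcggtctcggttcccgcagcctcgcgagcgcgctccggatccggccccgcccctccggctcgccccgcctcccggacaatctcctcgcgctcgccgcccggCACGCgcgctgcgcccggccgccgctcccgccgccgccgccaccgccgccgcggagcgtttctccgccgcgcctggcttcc
Id4: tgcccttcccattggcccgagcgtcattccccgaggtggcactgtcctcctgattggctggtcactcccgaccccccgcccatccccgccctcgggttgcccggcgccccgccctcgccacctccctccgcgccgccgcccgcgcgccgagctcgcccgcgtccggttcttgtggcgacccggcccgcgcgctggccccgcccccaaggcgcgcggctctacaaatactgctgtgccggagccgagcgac
Inhbb: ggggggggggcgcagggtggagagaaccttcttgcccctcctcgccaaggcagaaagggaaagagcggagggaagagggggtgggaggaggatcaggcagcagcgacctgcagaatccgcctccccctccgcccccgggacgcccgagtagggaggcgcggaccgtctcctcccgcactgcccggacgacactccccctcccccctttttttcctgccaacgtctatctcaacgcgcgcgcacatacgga
The Smad9 window held the core 2 times, those of Tgfb1 and Acvr2a held it once and those of Bmp4, Id4 and Inhbb did not hold it. RefSeq promoters were at hand for 34 of the 47 members, with 46 start sites. The core, searched on both strands, was in 22 of these 46 windows (47.8%) and in 28.2% of all 32851. Of the members with a promoter, it was in 5 of the 11 that rose in AhR-/- after HDM, in the 1 that fell (Tgfb1) and in 15 of the 22 others. The SMAD box GTCTG was in 21 of the 46 windows (45.7%) against 42.2% of all, and the GC-rich SMAD site GGCGCC in 13 (28.3%) against 9.59%. The letters may overlap one another in GC-rich promoters, and a match is no evidence of binding.

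Setting AhR-/- against WT in the HDM libraries asks which genes differ between these labels after HDM. The groups also differed in Y-linked reads and in the ranges of AT1 and hematopoietic sums. The contrast alone therefore cannot show which genes depend on AhR. Of the 41 members tested, 13 rose and 2 fell in AhR-/- (adjusted p at most 0.05, quasi-likelihood test of edgeR), while 26 did not pass. Over all 14161 genes tested, 22.1% passed, 9.22% as higher and 12.9% as lower. The median log2 difference of the members was 0.78, against -0.00 for all genes. The BMP branch had 8 higher and 1 lower of 15, the TGF-beta and activin branch 2 higher and 1 lower of 18, and the shared genes 3 higher of 8. In 14 members every AhR-/- library lay above every WT library, as in 9.63% of all genes, and in 3 every one lay below, as in 15.3%. In this comparison the CPM values of members are on the scale of the 12 HDM libraries, those of markers are on the scale of all 22 libraries, and n = 4 per group.

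Among the ligands, Bmp4, a morphogen of lung branching (ENSMUSG00000021835, chromosome 14, 46383520 to 46390669, GRCm38), was at 9.26, 10.7, 8.36 and 4.39 CPM in WT and at 21.1, 17.0, 36.0 and 31.8 in AhR-/-. The groups did not overlap, and the log2 difference was 1.70 ± 0.42 (SE, adjusted p = 0.0267, edgeR). Tgfb2 (chromosome 1, 186622792 to 186705989) was at 11.0, 18.8, 10.2 and 6.11 CPM in WT and at 31.3, 27.5, 45.1 and 60.3 in AhR-/-, a log2 difference of 1.85 ± 0.50 (adjusted p = 0.0293, edgeR). Its groups did not overlap either. Inhbb, the activin beta B chain, had 1.84, 2.72, 0.714 and 1.18 CPM in WT and 5.74, 3.77, 5.82 and 5.70 in AhR-/- (log2 difference 1.75 ± 0.48, adjusted p = 0.0300, edgeR). Tgfb1 (ENSMUSG00000002603, chromosome 7, 25687002 to 25705077) went the other way, with 3.60, 1.82, 3.06 and 2.89 CPM in WT and 1.16, 0.511, 1.09 and 0.663 in AhR-/-. All 4 AhR-/- libraries were below all WT libraries, by -1.76 ± 0.45 on the log2 scale (adjusted p = 0.0268, edgeR). These Tgfb1 values rest on few counts, 127, 8, 30 and 54 in WT and 47, 8, 3 and 5 in AhR-/-. The ligands Bmp2, Inhba and Tgfb3 did not pass, with log2 differences of 0.99 ± 0.61, 0.17 ± 0.58 and 0.28 ± 0.77 (SE). Of the Ltbp genes none passed, and Ltbp3 had 26.9 ± 14.6 CPM in WT against 74.9 ± 20.9 in AhR-/- (SD).

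Among the receptors, Bmpr1a, a type I receptor of BMP2 and BMP4 (ENSMUSG00000021796, chromosome 14, 34410734 to 34503341), was at 12.6, 19.7, 7.44 and 6.91 CPM in WT and at 55.6, 27.7, 102 and 86.0 in AhR-/-. The groups did not overlap, with AhR-/- replicate 2 nearest to WT (log2 difference 2.55 ± 0.58, adjusted p = 0.0261, edgeR). Its partner Bmpr2, the BMP type II receptor, had 29.6, 38.6, 21.8 and 19.3 CPM in WT and 64.2, 33.2, 125 and 94.8 in AhR-/-. Here replicate 2 of AhR-/- lay below the highest WT library, and the log2 difference was 1.53 ± 0.42 (adjusted p = 0.0298, edgeR). Acvr2a, a type II receptor used by activins and BMPs, rose from 6.15, 8.17, 3.77 and 7.07 CPM to 13.2, 10.4, 15.3 and 15.9 (log2 difference 1.12 ± 0.29, adjusted p = 0.0276, edgeR). Acvr1, another BMP type I receptor, had 2.14 to 4.77 CPM in WT and 5.31 to 12.0 in AhR-/- (log2 difference 1.14 ± 0.37).

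Acvrl1 (ALK1), a type I receptor for BMP9 and BMP10 best known from endothelium (ENSMUSG00000000530, chromosome 15, 101128522 to 101145336), showed the largest fall among the members. It was at 25.8, 15.2, 39.8 and 27.6 CPM in WT and at 2.65, 5.82, 2.18 and 1.33 in AhR-/-. The groups were far apart (log2 difference -3.11 ± 0.63, adjusted p = 0.0261, edgeR). Its co-receptor Eng (endoglin) was at 4.65, 2.27, 12.5 and 16.1 CPM in WT and at 0.817, 4.15, 1.46 and 2.78 in AhR-/-, with a log2 difference of -1.95 ± 0.66 that did not pass (adjusted p = 0.0501, edgeR). Of 8 markers of endothelial cells, which a CD31- gate would remove, 7 were tested. Vwf fell (-0.99, adjusted p = 0.0464, edgeR), Tek was higher in all AhR-/- libraries but did not pass (2.18, adjusted p = 0.0512, edgeR), and the other 5 did not pass. Cdh5 was at 0.493 to 1.22 CPM in WT and 0.932 to 3.86 in AhR-/- on the scale of all 22 libraries, and Pecam1 (CD31) at 7.10 to 21.2 and 1.82 to 8.76. The sum of the 8 was 24.3 to 32.9 CPM in WT and 11.8 to 40.3 in AhR-/-. The part of other cells in these differences was not tested. In the TGF-beta branch, Tgfbr2 had 56.1, 71.7, 59.2 and 38.6 CPM in WT and 80.4, 60.7, 141 and 167 in AhR-/-, with overlapping groups (log2 difference 0.99 ± 0.34, adjusted p = 0.0533, edgeR). Tgfbr1, Acvr1b, Tgfbr3, Bmpr1b and Acvr2b did not pass either.

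Of the receptor SMADs, Smad9 (SMAD8, ENSMUSG00000027796, chromosome 3, 54755582 to 54801257) had the largest difference of all 41 members in this fit, though not in all those below. It was at 0.538, 1.36, 0.714 and 1.07 CPM in WT and at 5.05, 1.85, 14.2 and 12.7 in AhR-/-. No AhR-/- library reached down to WT, but replicate 2 was close to it (log2 difference 3.23 ± 0.65, adjusted p = 0.0261, edgeR). The BMP SMADs Smad1 and Smad5 did not pass, at 0.47 ± 0.33 and 0.67 ± 0.30 on the log2 scale. Nor did the TGF-beta SMADs Smad2 (-0.18 ± 0.23) and Smad3 (0.73 ± 0.34). Smad1 was at 6.77, 4.99, 4.18 and 5.14 CPM in WT and 11.5, 7.93, 3.27 and 5.70 in AhR-/-, and Smad3 at 8.07, 10.4, 5.71 and 5.63 and 10.8, 10.0, 11.3 and 17.1, with overlapping groups. The common partner Smad4 rose a little, from 11.3, 11.3, 9.69 and 7.45 CPM to 19.8, 12.5, 14.2 and 16.7 (log2 difference 0.68 ± 0.22, adjusted p = 0.0446, edgeR). The adjusted p of Smad4 was 0.0504 without the predicted genes that dominate some libraries and 0.0544 in one fit over both tables (edgeR).

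Of the Id genes, read as BMP targets, 3 of 4 rose. Id3 was at 16.7, 21.3, 8.36 and 5.46 CPM in WT and at 44.5, 29.8, 92.4 and 87.1 in AhR-/- (log2 difference 2.30 ± 0.69, adjusted p = 0.0366, edgeR). Id4 was at 1.02, 2.95, 0.612 and 1.18 CPM in WT and at 10.4, 5.69, 8.003 and 9.28 in AhR-/- (log2 difference 2.68 ± 0.69, adjusted p = 0.0277, edgeR). Id1 was at 6.52, 6.13, 3.47 and 2.36 CPM in WT and at 11.4, 14.7, 12.7 and 14.5 in AhR-/- (log2 difference 1.54 ± 0.48, adjusted p = 0.0402, edgeR). In all 3 the groups did not overlap. Id2 did not pass, at 431 to 959 CPM in WT and 40.7 to 378 in AhR-/- (log2 difference -1.80 ± 0.69). Of the genes that limit the signal, Smurf2 rose from 11.1, 14.5, 8.06 and 7.34 CPM in WT to 23.3, 14.1, 29.1 and 24.5 in AhR-/- (log2 difference 1.15 ± 0.30, adjusted p = 0.0276, edgeR). Smad6 (1.85 ± 0.63, adjusted p = 0.0522), Smad7 (0.38 ± 0.27), Bambi (0.30 ± 0.49) and Smurf1 (-0.09 ± 0.23) did not pass. Smad7 had 15.2, 9.08, 14.8 and 8.95 CPM in WT and 18.6, 9.01, 17.5 and 18.03 in AhR-/-, and the groups overlapped. The corepressors Ski, Skil and Tgif1 were at 0.79 ± 0.28, -0.52 ± 0.29 and -0.55 ± 0.30, none past the threshold.

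**Figure D2:**
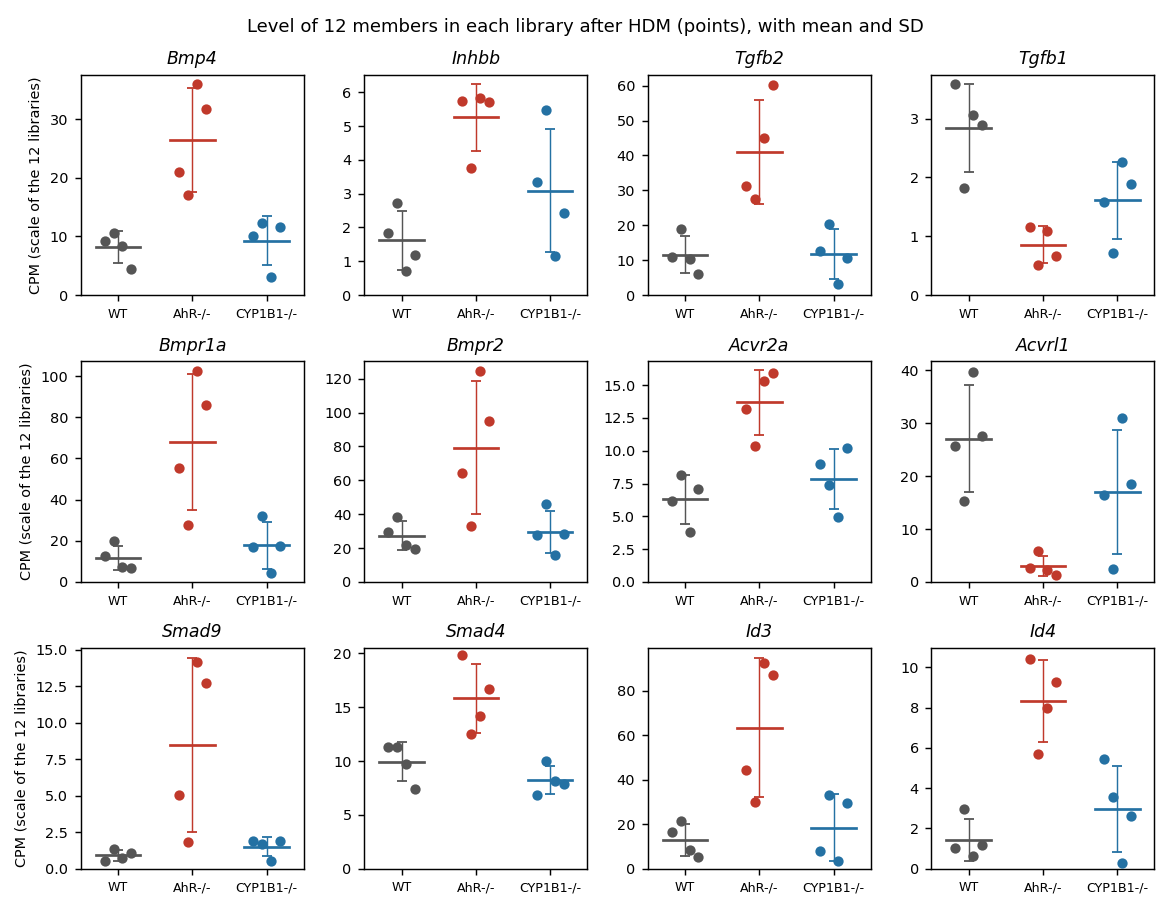
CPM of 12 members in each of the 12 libraries after HDM (points), on the scale of those libraries. Horizontal lines are group means and bars the SD (n = 4). AhR-/- lies above WT in Bmp4, Tgfb2, Bmpr1a, Smad9, Id3 and Id4 and below it in Tgfb1 and Acvrl1, while the CYP1B1-/- points overlap WT in all 12 panels.

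**Figure D3:**
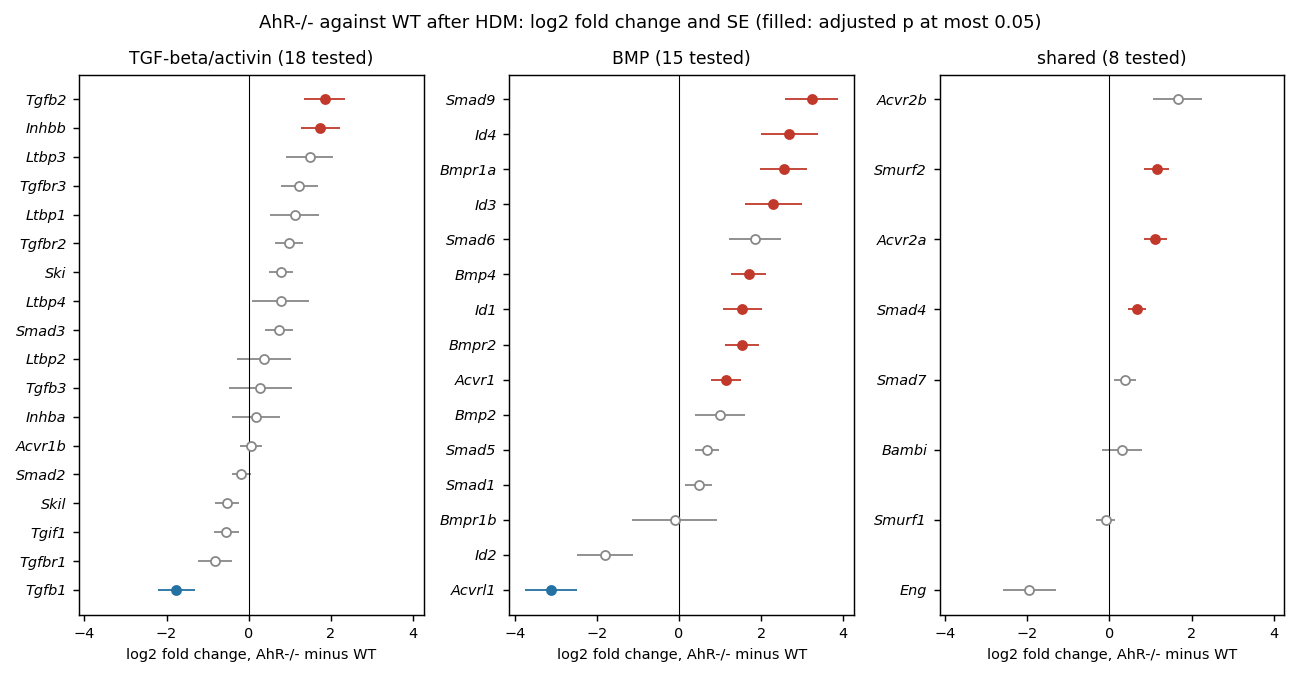
Log2 fold change of AhR-/- minus WT after HDM with its SE for the 41 members tested, by branch. Filled points passed an adjusted p of 0.05, red for higher and blue for lower. In the BMP panel 8 of 15 are filled red, against 2 of 18 in the TGF-beta/activin panel.

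Genes near these members were counted from lists put together by function. Of 52 other components of the family (further ligands, antagonists, receptors and regulators), 47 were tested, of which 9 rose and 3 fell (25.5%, near the 22.1% of all genes, median 0.41). Those that rose included the SMAD phosphatase Ppm1a (1.06), the co-receptor Rgmb (1.58) and the SMAD4 ubiquitin ligase Trim33 (0.77), all as log2 differences. Of 22 known TGF-beta targets, 21 were tested, of which 1 rose and 3 fell (19.0%). The cell cycle inhibitor Cdkn2b rose (1.78), and Zeb1 (-1.66), Vim (-3.25) and Cdkn1a (-1.39) fell. Zeb1 and Vim are also expressed by hematopoietic cells. Of 8 further BMP targets, 3 were tested and none passed. Of the hematopoietic markers 8 of 26 fell and none rose, with a median of -1.59. Of the AT1 markers 1 of 8 rose (Akap5), with a median of 2.03, and of 10 mesenchymal markers none passed (median 1.04). Of the epithelial markers Krt18 (1.86) and Nkx2-1 (2.21) rose, Krt8 was higher in all AhR-/- libraries without passing (0.93), and Epcam (-0.64) and Cdh1 (0.16) did not pass. Of 4 club cell markers Cyp2f2 rose (1.73), and their sum was 195 to 1825 CPM in WT and 1686 to 8070 in AhR-/- on the scale of all 22 libraries. Of 5 ciliated cell markers Ccdc153 rose (1.94), and of 8 type 2 alveolar cell (AT2) markers none passed. Their part in the members' differences was not tested beyond the fits below.

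The calls were lost in several other fits. With the replicate block 0 of 41 members passed (edgeR, 25 at an unadjusted p under 0.05, median log2 difference 0.78), and of all genes 1 passed in place of 3129. With the Y-linked score as a covariate 0 of 41 passed (edgeR, 19 at an unadjusted p under 0.05, median 0.83), and 0 of all genes. Single members moved by unequal amounts with the Y-linked score, Smad9 to 1.95, Bmpr1a to 1.86, Bmpr2 to 0.83, Id4 to 2.69 and Tgfb1 to -1.77 on the log2 scale. Without AhR-/- replicates 3 and 4, the libraries with Y-linked reads, 0 of 45 members passed (edgeR, 18 at an unadjusted p under 0.05), and 0 of all genes, in an alternative chosen after seeing the data. Smad9 then had a log2 difference of 2.00 (adjusted p = 0.202, edgeR), Bmpr1a 1.89, Bmp4 1.25, Acvrl1 -2.72, Tgfb1 -1.73, Id4 2.65, Id3 1.56 and Bmpr2 0.87. With the hematopoietic score as a covariate 0 of 41 passed (edgeR, 10 at an unadjusted p under 0.05, median 0.51), and 0 of all genes, and Smad9 was at 1.55 (adjusted p = 0.286, edgeR), Bmpr1a at 1.30 and Acvrl1 at -1.99. Over all fits that left out 1 library, 0 to 18 members passed, and none passed without AhR-/- replicate 1, 3 or 4 or WT replicate 3 or 4. Without WT replicate 1, 3 passed.

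CYP1B1-/- after HDM was set against the same WT libraries. None of the 41 members passed (edgeR, 2 at an unadjusted p under 0.05), and none by DESeq2 or limma voom. Of all 14161 genes 0% passed the quasi-likelihood test, while 1 gene passed by DESeq2 and 0 by limma voom. The median log2 difference of the members was 0.17. The lowest p-values were those of the co-receptor Tgfbr3 (log2 difference 1.17 ± 0.44), the latency proteins Ltbp2 (1.46 ± 0.66) and Ltbp1 (1.21 ± 0.58) and Inhbb (0.91 ± 0.49). For Tgfbr3 the libraries were at 0.793, 1.59, 0.714 and 1.71 CPM in WT and at 3.16, 1.90, 1.41 and 4.08 in CYP1B1-/-. Ltbp2 was at 1.27, 2.497, 0.612 and 1.66 CPM in WT and 3.16, 10.7, 1.72 and 1.40 in CYP1B1-/-. Ltbp1 was at 0.453, 3.18, 1.02 and 1.66 and 3.51, 4.28, 1.38 and 4.43 CPM, and Inhbb at 3.34, 5.47, 1.15 and 2.42 in CYP1B1-/-. In all of these the groups overlapped. Smad9 was at 1.93, 1.67, 0.539 and 1.93 CPM in CYP1B1-/-, Bmp4 at 10.0, 12.4, 3.13 and 11.7, and Acvrl1 at 16.3, 2.38, 31.0 and 18.5. CYP1B1-/- replicate 2, which was low in Acvrl1, also had the lowest hematopoietic sum of its group (288 CPM on the scale of all 22 libraries).

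AhR-/- was also set directly against CYP1B1-/- after HDM. None of the 41 members passed (edgeR, lowest adjusted p = 0.0638), while 21 had an unadjusted p under 0.05. Of all genes 0.00706% passed. The median difference of the members was 0.65 on the log2 scale, against -0.10 for all genes. It was 0.16 without the filter, 0.31 in one fit over both tables, 0.37 with the hematopoietic score and 0.73 by limma voom. The lowest p-values were those of Smad4 (0.96 ± 0.22), Acvrl1 (-2.47 ± 0.62), Smad9 (2.48 ± 0.63) and Tgfb2 (1.84 ± 0.50). For Smad4, CYP1B1-/- libraries were at 6.85, 9.99, 8.12 and 7.90 CPM, all below the AhR-/- libraries. Tgfb2 was at 12.7, 20.5, 3.10 and 10.5 CPM in CYP1B1-/-, also below every AhR-/- library. Other tests passed 12 (likelihood ratio test of edgeR), 14 (DESeq2) and 22 (limma voom with sample weights) members.

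The same genotypes were compared at steady state. For AhR-/- against WT, 0 of 45 members passed (edgeR, 0 at an unadjusted p under 0.05), and none by DESeq2 or limma voom. Of all 15547 genes 0% passed the quasi-likelihood test, while 13 genes passed by DESeq2 and 11 by limma voom. The median difference was -0.09 on the log2 scale. The lowest p-values were those of Acvrl1 (-1.41 ± 0.81), Tgif1 (0.35 ± 0.21), Inhbb (-0.34 ± 0.22) and Acvr2b (-0.26 ± 0.18). On the scale of the 10 steady-state libraries, Acvrl1 was at 9.87, 2.72, 0.788 and 0.964 CPM in WT and 0.777, 2.36 and 0.839 in AhR-/-. Tgif1 was at 14.0, 14.3, 10.1 and 13.3 and 17.2, 16.4 and 15.9 CPM. WT replicate 1 was the highest library in Acvrl1. It also had the highest endothelial (42.7 CPM) and hematopoietic (537 CPM) sums of its group, on the scale of all 22 libraries. Over 17 alternative fits the difference of Acvrl1 ranged from -2.12 to -0.018. Inhbb was at 6.52, 7.90, 10.0 and 11.4 CPM in WT and 7.16, 6.34 and 7.89 in AhR-/-, and Acvr2b at 14.8, 13.8, 11.8 and 12.9 and 10.7, 12.8 and 9.81. For CYP1B1-/- against WT, 0 of 45 passed (edgeR, 2 at an unadjusted p under 0.05), and none by DESeq2 or limma voom. Of all genes 0.0129% passed the quasi-likelihood test, while 5 genes passed by DESeq2 and 8 by limma voom. Inhba (-0.85 ± 0.34), Smad3 (0.53 ± 0.23), Bmp4 (-0.55 ± 0.27) and Acvr2a (0.62 ± 0.31) had the lowest p-values. Inhba was at 3.62, 3.90, 4.82 and 1.87 CPM in WT and 1.91, 1.93 and 2.01 in CYP1B1-/-, and Smad3 at 51.2, 51.6, 59.5 and 68.7 and 123, 62.6 and 64.2. Bmp4 was at 148, 112, 133 and 124 CPM in WT and 46.8, 126 and 92.0 in CYP1B1-/-, and Acvr2a at 64.3, 71.2, 63.0 and 65.6 and 171, 74.4 and 59.6. CYP1B1-/- replicate 2 was the highest of these libraries in Smad3 and Acvr2a and the lowest in Bmp4. Over 17 alternative fits the difference ranged from 0.028 to 0.957 for Acvr2a and from 0.144 to 0.742 for Smad3. It ranged from -0.903 to -0.242 for Bmp4 and from -1.07 to -0.636 for Inhba.

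The next comparisons set HDM against steady state within a genotype, on the scale of all 22 libraries. State cannot be told apart from table in any genotype, and each table is labelled as a run of its own. Nor can it be told apart from Y-linked reads in WT and CYP1B1-/-. Their Y-linked sum was at least 66.6 CPM in every steady-state library and at most 0.256 in every HDM library. The paper used mice of both sexes and reports matching by sex. In WT, 6 of 46 members rose after HDM and 21 fell (edgeR). Of all 16639 genes 38.4% passed, 19.0% as higher and 19.4% as lower. The median was -0.62 for the members and -0.11 for all genes. In 7 members all HDM libraries lay above all steady-state libraries (17.7% of all genes) and in 21 below (21.2%). The TGF-beta and activin branch had 3 higher and 10 lower of 19, the BMP branch 3 higher and 9 lower of 19, and the shared genes 2 lower of 8.

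In WT the ligand Tgfb2 was at 107, 136, 178 and 228 CPM at steady state and at 17.4, 21.1, 15.2 and 7.31 after HDM, a log2 difference of -3.42 ± 0.42 (adjusted p = 6.55e-06, edgeR). Bmp4 was at 97.6, 76.4, 91.4 and 95.1 CPM and then at 14.7, 11.9, 12.5 and 5.26 (-3.03 ± 0.40, adjusted p = 9.47e-06, edgeR). Both ligands were far outside the spread of their groups. Tgfb1 did the reverse, from 0.239, 0.185, 0.474 and 0.414 CPM to 5.70, 2.03, 4.57 and 3.46 (3.57 ± 0.61, adjusted p = 7.97e-05, edgeR). Its steady-state values rest on only 4, 3, 7 and 9 counts. Among the receptors, Tgfbr2 was at 303, 397, 477 and 623 CPM at steady state and at 88.8, 80.2, 88.4 and 46.2 after HDM (-2.57 ± 0.35, adjusted p = 1.06e-05, edgeR). Acvr2a was at 42.4, 48.4, 43.3 and 50.2 CPM and then at 9.73, 9.13, 5.63 and 8.46 (-2.48 ± 0.32, adjusted p = 8.41e-06, edgeR). Neither receptor had overlapping groups. Bmpr2 did not pass, at 50.9 to 70.1 CPM and 23.1 to 46.9 (-0.76 ± 0.40).

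Smad3 fell from 33.7, 35.1, 40.9 and 52.5 CPM to 12.8, 11.7, 8.52 and 6.73 (-2.03 ± 0.30, adjusted p = 1.85e-05, edgeR). Smad9 fell from 7.34 to 12.2 CPM to 0.852 to 1.52 (-3.11 ± 0.49), and Smad1 rose from 2.65 to 3.05 CPM to 5.58 to 10.7 (1.35 ± 0.32). The receptor SMADs of the BMP branch thus differed in sign. Id2 rose from 37.1, 24.3, 42.9 and 28.2 CPM to 1518, 620.4, 729.7 and 515.9 (4.67 ± 0.69, adjusted p = 2.10e-05, edgeR). Id1, Id3 and Id4 fell, by -1.51 ± 0.46, -2.90 ± 0.59 and -2.35 ± 0.48. Acvrl1 rose (3.96 ± 0.75), as did Tgif1 (1.81 ± 0.33) and Acvr1b (0.83 ± 0.28). Smad4 (0.56 ± 0.25), Smad7 (0.20 ± 0.31), Smurf1 (0.54 ± 0.24) and Smurf2 (-0.48 ± 0.28) did not pass. In the same comparison 22 of 27 hematopoietic markers rose and 7 of 8 AT1 markers fell. Of the AT2 markers 4 of 8 rose (Sftpa1, Lamp3, Napsa and Slc34a2), of the mesenchymal markers 4 of 10 fell (Col1a1, Col1a2, Col3a1 and Pdgfra), and of the epithelial markers 4 of 5 fell (Cdh1, Krt8, Krt18 and Nkx2-1). Of the endothelial markers Pecam1 rose (1.82) and Tek fell (-2.24), of the ciliated markers Tppp3 fell (-2.32) and of the club markers Cyp2f2 fell (-1.41). Their part was not tested beyond the covariate fits. There 3 members passed with the hematopoietic score (17 at an unadjusted p under 0.05, median -0.55) and 1 with the Y-linked score (19, median -0.50), where 142 and 143 of 16639 genes passed.

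Of the other components, 6 rose and 17 fell of 49 tested in WT (46.9%, against 38.4% of all genes). Fstl3, a follistatin-like activin antagonist, fell (-3.34), as did the BMP-binding Twsg1 (-2.21) and Itgb6 (-2.59), a subunit of an integrin that frees latent TGF-beta, while the acetyltransferase Ep300 rose (1.67). Of the 22 TGF-beta targets, 8 rose and 7 fell (68.2%). Tgm2 fell (-2.38), and Zeb1 (3.12), Bhlhe40 (5.08) and Cdkn1a (3.14) rose. Of 5 further BMP targets, Atoh8 (-3.59) and Runx2 (-0.85) fell. The values are log2 differences.

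In AhR-/-, 4 members rose after HDM and 5 fell of 46 tested (edgeR), against 20.6% of all genes, 10.6% as higher and 10.1% as lower. The median was 0.23 for the members and -0.05 for all genes. With another scaling (RLE) the split was 8 higher and 5 lower, and without the dominant predicted genes 6 and 5. Tgfbr2 (-1.61 ± 0.35), Smad3 (-1.37 ± 0.31), Tgfb2 (-1.72 ± 0.41), Acvr2a (-1.22 ± 0.32) and Bmp4 (-1.22 ± 0.39) fell. Id2 (3.30 ± 0.72), Smad1 (1.54 ± 0.35), Smad4 (1.10 ± 0.27) and Tgfb1 (2.12 ± 0.70) rose. Tgfb1 had only 6, 1 and 6 counts at steady state and 47, 8, 3 and 5 after HDM. Smad9 did not pass, with 9.88, 9.36 and 7.87 CPM at steady state and 7.31, 2.49, 17.7 and 17.0 after HDM. Bmpr1a had 96.2, 88.8 and 117 CPM and then 80.4, 37.3, 128 and 115. In both genes the HDM libraries lay on both sides of the steady-state libraries. Id2 was at 547.7 and 310.1 CPM in AhR-/- replicates 1 and 2 and at 51.0 and 62.0 in replicates 3 and 4. With replicates 3 and 4 as the HDM group, so that Y-linked reads were present on both sides, 0 of 46 passed (12 at an unadjusted p under 0.05) and 724 of 16639 genes, with Tgfb2 at -1.40 and Id2 at 1.18. With replicates 1 and 2 alone 14 passed, 9 as higher and 5 as lower, and 4067 of all genes. Of the other components 4 rose and 5 fell of 49, and of the TGF-beta targets 6 rose and 3 fell. Of the hematopoietic markers 21 of 27 rose, and of the AT1 markers none of 8 passed (median -1.28). Of the AT2 markers 6 of 8 rose, among them Sftpc (3.51), Sftpa1 (3.85) and Lamp3 (3.32), and of the epithelial markers Cdh1 fell (-1.50). The endothelial marker Egfl7 (2.56) and the club marker Scgb3a1 (3.82) rose, and the ciliated marker Tppp3 fell (-1.23).

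In CYP1B1-/-, 7 members rose and 15 fell of 46 (edgeR), against 33.4% of all genes, 15.5% as higher and 17.9% as lower. The median was -0.17 for the members and -0.02 for all genes, and moved to -0.03 and 0.11 with RLE scaling, where 8 members rose and 13 fell. Smad3 (-2.74 ± 0.32), Acvr2a (-2.82 ± 0.33), Tgfb2 (-3.64 ± 0.44), Tgfbr2 (-2.95 ± 0.36) and Bmp4 (-2.45 ± 0.41) fell, and Id2 rose (4.77 ± 0.78). Bmpr1a (-2.14 ± 0.47), Smad9 (-2.46 ± 0.49) and Id3 (-2.36 ± 0.60) fell as well. Tgfb1 (2.44 ± 0.66), Tgfb3 (1.89 ± 0.68), Tgif1 (1.93 ± 0.37), Smad1 (1.68 ± 0.36), Acvrl1 (3.92 ± 0.86) and Eng (2.10 ± 0.81) rose. Tgfb1 had only 13, 5 and 2 counts at steady state. Of the other components 5 rose and 15 fell of 49, and of the TGF-beta targets 8 rose and 6 fell. Of the hematopoietic markers 21 of 27 rose, and all 8 AT1 markers fell. Of the AT2 markers 7 of 8 rose, of the epithelial markers 4 of 5 fell, and of the endothelial markers Pecam1 (2.55) and Vwf (1.24) rose. The ciliated marker Tppp3 fell (-2.43). With the hematopoietic or the Y-linked score as a covariate 4 members passed, all lower, and 375 and 592 of 16639 genes. Acvrl1 (-0.046) and Eng (-0.56) turned their sign with the hematopoietic score and Tgfb3 (-1.82) with the Y-linked score.

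**Figure D4:**
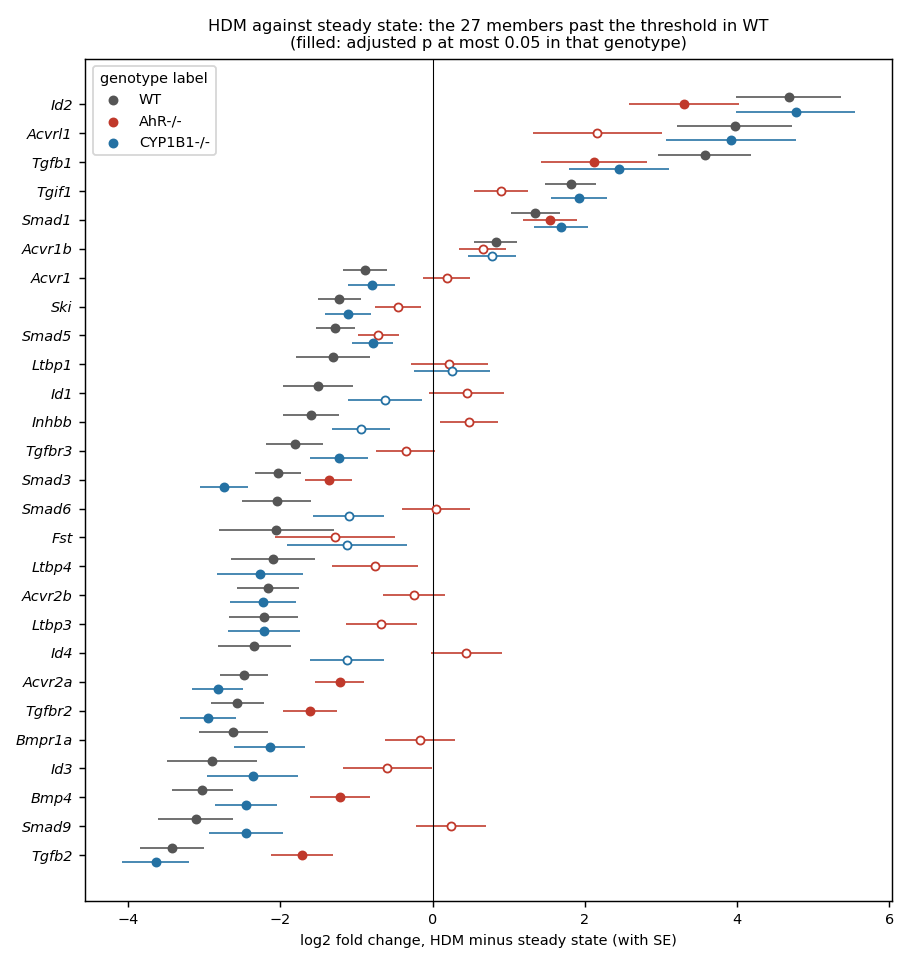
Log2 fold change of HDM minus steady state with its SE in WT, AhR-/- and CYP1B1-/- for the 27 members past the threshold in WT. Filled points passed an adjusted p of 0.05 in that genotype. For Smad9, Bmpr1a, Id4 and Smad6 the AhR-/- points lie between -0.17 and 0.44 and the WT points between -2.05 and -3.11, and the members were picked here by the WT result.

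Whether the response to HDM differed between genotypes was tested by an interaction term. For AhR-/- none of 46 members passed (edgeR, lowest adjusted p = 0.149), while 17 had an unadjusted p under 0.05 and 0% of all genes passed. The median was 0.77 for the members and 0.02 for all genes. Smad9 (3.35 ± 0.68), Id4 (2.79 ± 0.67), Inhbb (2.07 ± 0.53) and Bmpr1a (2.45 ± 0.65) had the lowest p-values. Other tests passed 5 (likelihood ratio test of edgeR), 11 (DESeq2) and 21 (limma voom with sample weights) members. For CYP1B1-/- none of 46 passed (edgeR, 1 at an unadjusted p under 0.05), none by DESeq2 or limma voom, and 0% of all genes passed. There Ltbp1 (1.57 ± 0.70), Id4 (1.22 ± 0.68), Smad3 (-0.71 ± 0.42) and Smad6 (0.94 ± 0.65) had the lowest p-values. The comparisons above share their WT libraries, so their values are not independent of one another.

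Counting could blur some members. Exons of other genes on the opposite strand overlapped 12.4% of the exon length of Tgfb3, 9.34% of Ltbp2, 7.84% of Acvr2a, 4.57% of Bmpr1a and 3.96% of Bmp4, and whether strand was used in counting is not given in the sources used here. Tgfb3 shared 8.79% of its stretches of 50 bases with transcripts of other genes, Ltbp2 8.58% and Acvr2a 6.98%.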

How the data were processed

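The authors trimmed reads with bbduk, aligned them with GSNAP to GRCm38 (mm10) and counted them per gene with featureCounts on Ensembl 99, and deposited raw counts per gene and library in one table per state. Strand and multimapping settings are not given in the sources used here.

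Symbols, biotypes and coordinates came from GENCODE M21 (GRCm38) by Ensembl ID. From the 54373 listed genes, 21793 protein-coding genes were kept. Genotypes were compared within each table, and HDM against steady state and the interactions in one fit of all 22 libraries. Tests were edgeR's quasi-likelihood tests (edgeR 4.0.16, R 4.3.3) with filterByExpr (minimum count 10, total 15), TMM scaling and Benjamini-Hochberg adjustment at 0.05 over all genes tested. CPM are on the TMM scale of the table or of all libraries, as stated. SE is the log2 fold change over the root of F. Values per library are given for the members past the threshold in AhR-/- against WT after HDM (at most the 12 of lowest p), the 6 of lowest p in WT between states, the 4 of lowest p where a genotype comparison had no call, and Tgfb1, Tgfbr2, Smad3, Smad4, Bmp4, Bmpr2, Smad1, Smad7 and Id1 in the first of these. Of each further list the 4 called genes of lowest p are named, except for a result that is not reported here. Scripts were tested on simulated data. The members and lists were chosen with earlier results of these data known.

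Alternatives were the likelihood ratio test, DESeq2 1.42.0, limma 3.58.1 voom with sample weights, RLE scaling, no filter, marker scores as covariates, the replicate block and leaving out libraries.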

Additional observations from a re-analysis of the deposited data

Results flagged for a closer look

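Among groups of 4 libraries, 10 of 168 member values (5.95%) lay apart from the other 3 by Dixon's ratio (gap to the nearest library over the whole range, on log2(CPM + 0.5)), where chance gives about 1 in 20. At steady state in WT, Smad2 was low in replicate 2 (31.4 CPM against 42.9 to 44.4, ratio 0.9046) and Ski high in replicate 4 (129 against 102 to 106, ratio 0.8297). After HDM in WT, Tgfbr1 was high in replicate 4 (68.1 CPM against 23.6 to 27.6, ratio 0.8539).

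In AhR-/- after HDM, replicate 2 was low in Inhbb (3.77 CPM against 5.70 to 5.82, ratio 0.9512) and Smad7 (9.01 against 17.5 to 18.6, ratio 0.9127) and high in Ltbp2 (3.13 against 1.39 to 1.46, ratio 0.9426). Replicate 1 was low in Bmpr1b (0.148 CPM against 1.06 to 1.09, ratio 0.9783), but on few counts (6 against 17, 3 and 8). In CYP1B1-/- after HDM, replicate 3 was low in Bmp4 (3.13 CPM against 10.0 to 12.4, ratio 0.8402) and Smad9 (0.539 against 1.67 to 1.93, ratio 0.8631), and replicate 2 was low in Id2 (167 against 523 to 637, ratio 0.8524). CYP1B1-/- replicates 2 and 3 had the lowest and the highest summed hematopoietic markers of their group (288 and 4570 CPM).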

How the results depend on the processing

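The number of members past the threshold moved with the processing. For AhR-/- against WT after HDM (15 members), it was 23 by the likelihood ratio test, 24 by DESeq2, 28 by limma voom with sample weights and 0 with the hematopoietic score, the Y-linked score or the replicate block, as without the 2 libraries with Y-linked reads. Leaving out 1 library gave 0 to 18. Whether the replicate numbers pair the samples is not stated in the sources used here. After HDM, 4 of 12 same-number correlations were over 0.1 (-0.564 to 0.748), against 18 of 36 between unlike numbers. At steady state, 4 of 8 same-number and 4 of 25 unlike-number correlations were. So few correlations cannot settle a pairing. The block changed the count of members in no other comparison by over 1.5 times. For AhR-/- against CYP1B1-/- (0 members), the counts were 12, 14 and 22 by the same 3 tests, 14 in one fit over both tables and 0 to 13 leaving out 1 library. For the interaction of AhR-/- and HDM (0 members), they were 5, 11 and 21, and 0 to 7. For HDM against steady state, WT (27) had 34 by limma voom with sample weights, 3 with the hematopoietic score, 1 with the Y-linked score and 23 to 31 leaving out 1 library. AhR-/- (9) had 16 by DESeq2, 0 with either score, 14 without the 2 libraries with Y-linked reads, 0 without the 2 that lack them and 6 to 14 leaving out 1 library. CYP1B1-/- (22) had 4 with either score and 18 to 23. In the other 4 comparisons all counts of members stayed at 0. Over all genes, AhR-/- against WT after HDM had 3129 calls, with 1802 without a filter, 6669 by limma voom, 1 with the block and 0 with either score. AhR-/- against CYP1B1-/- had 1, with 2458 by the likelihood ratio test, 2906 by DESeq2 and 4303 by limma voom, and the interaction had 0, with 221, 1236 and 5042.

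Signs turned for Bmpr2 in WT (HDM against steady state, 0.079 with the hematopoietic and 0.49 with the Y-linked score), for Acvrl1 (-0.046) and Eng (-0.56) in CYP1B1-/- with the hematopoietic score, for Tgfb3 in CYP1B1-/- with the Y-linked score (-1.82), and for Smad7 in WT without HDM replicate 1 (-0.027, range leaving out 1 library -0.027 to 0.42). The cause was not tested. The fits without dominant genes, over both tables and without pairs of libraries were added after seeing the data.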
